A study of Mus musculus with 7 samples.

Results

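The genes described here are 7 cadherins of the 32285 genes in the count files, chosen by name: Cdh1, Cdh2, Cdh4, Cdh6, Cdh7, Cdh11 and Cdh13. The gates that sort the cells use no cadherin. They were followed in sorted neural crest cells (NCCs) of mouse embryos, from cells with a neural character through Sox10-positive cells to mesenchymal cells, in 7 single-cell RNA-seq libraries. Each library is a pool of embryos labelled Swiss-Webster, which the study describes as a mixed background, and its EGFP-positive, DAPI-negative cells were sorted by FACS and sequenced from the 3' end of the transcripts on the 10x Chromium platform.

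All embryos carried Wnt1-Cre/+ and ROSA-EGFPf/+, so that Cre recombinase, driven by the Wnt1 promoter of the dorsal neural tube, switched on EGFP in cells that had used the promoter and in their descendants. The sort therefore holds neural tube cells and neurons as well as NCCs. The control groups had no further allele and comprised 1 library at E8.5, 1 at E9.5 and 2 at E10.5. The groups named Tbx1null comprised 1 library at E9.5 and 2 at E10.5. Their sample titles read Tbx1null while their genotype field reads Wnt1-Cre/+;Tbx1+/-;ROSA-EGFPf/+, so they are called the libraries labelled Tbx1null. The study's own list of experiments gives them as Wnt1-Cre/+;Tbx1-/-;ROSA-EGFPf/+. The tissue was the anterior part of the embryo at E8.5, the pharyngeal apparatus with the heart at E9.5, and the second and further arches with the heart at E10.5, and at both later stages it took in the neural tube. The E8.5 library was made with kit version 2, the libraries labelled Tbx1null at E9.5 and, as replicate 1, at E10.5 with version 3, and the other 4 with version 3.1. Stage and tissue cannot be told apart, and at E8.5 the kit cannot be told apart from either. At E9.5 the kit cannot be told apart from the genotype, and at E10.5 version 3 was used for 1 Tbx1null-labelled library only.

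Cadherins are calcium-dependent adhesion proteins that bind cadherins on neighbouring cells and are tied to actin by catenins. Type I classical cadherins, here Cdh1 (E-cadherin), Cdh2 (N-cadherin) and Cdh4 (R-cadherin), form strong junctions in epithelia and neuroepithelia, while type II cadherins, here Cdh6, Cdh7 and Cdh11, are known from migrating and mesenchymal cells. Cdh13 (T-cadherin) lacks the cytoplasmic tail and is held to the membrane by a lipid anchor. NCCs are known to change their cadherins when they leave the neural tube, and the order of cells below was chosen with this change in mind. No cell was followed between the groups, which stand side by side in the same embryos. A rise or fall from one group to the next is thus a difference between cell groups. The neural cells also include neurons (below).

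Cells were put in gates by counts of unique molecular identifiers (UMIs) of 5 genes. Neural cells had at least 1 UMI of Sox2, a neural progenitor factor, and 0 of Twist1. Sox10 cells had at least 2 UMIs of Sox10, the factor of early and glial NCCs, and mesenchymal cells at least 2 UMIs of Twist1, Prrx1 and Prrx2 together. Cells that met both of the last rules were kept apart as double-positive cells. The gates held 995 to 3041 neural, 191 to 1071 Sox10, 12 to 1670 double-positive and 1102 to 6593 mesenchymal cells per library. Double-positive cells were 29.9% of the kept cells at E8.5, 9.16% and 6.76% in the control and the Tbx1null-labelled library at E9.5, and 0.178% to 2.52% at E10.5. Their median depth per library ran from 22665 to 32747.5 UMIs, against 18411 to 27939.5 in Sox10 cells and 16299 to 24450 in mesenchymal cells. The part of doublets that passed the doublet filter was not tested.

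Kept cells numbered 5587 to 9557 per library with a median of 14855.5 to 22882 UMIs, and 2 libraries shared at most 26 barcodes, none with the same counts. Marker genes that the gates do not use followed the names of the neural and mesenchymal gates. The summed level of Sox1, Sox3, Pax6, Hes5 and Nes was 227 to 1078 CPM (UMIs of the gene scaled to a common total) in neural cells, 40.9 to 267 CPM in Sox10 cells and 52.3 to 368 CPM in mesenchymal cells, and that of Pdgfra, Col1a1, Col3a1, Snai1 and Lum was 95.2 to 365 CPM in mesenchymal cells and 4.42 to 11.5 CPM in neural cells. The Tbx1null-labelled E10.5 replicate 2 stood apart in its mesenchymal gate, where the neuron markers Dcx, Tubb3, Nefl, Nefm and Isl1 summed to 893 CPM against 21.8 to 151 CPM in the other 6 libraries. Without cells holding neuron UMIs in this gate, an alternative chosen after seeing the data, values are given beside the results that this library could move. Tbx1 itself had 71 to 665 UMIs per library, and with 343 and 504 in the Tbx1null-labelled and 543 and 665 in the control E10.5 libraries the 3' tags do not check the genotype.

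Levels of cadherins below are CPM of the summed UMIs of a gate with TMM scaling unless stated. Sums over marker genes, above and below, are CPM without TMM scaling. Values of 7 libraries are given in the order control E8.5, control E9.5, Tbx1null-labelled E9.5, control E10.5 replicates 1 and 2, and Tbx1null-labelled E10.5 replicates 1 and 2. Gates were compared within libraries by edgeR's quasi-likelihood test with the library as a block, and p-values were adjusted by Benjamini-Hochberg over all genes tested. For gates they reflect how far the difference within a library varied over these libraries, which mix stages, genotypes and kits.

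**Figure D1:**
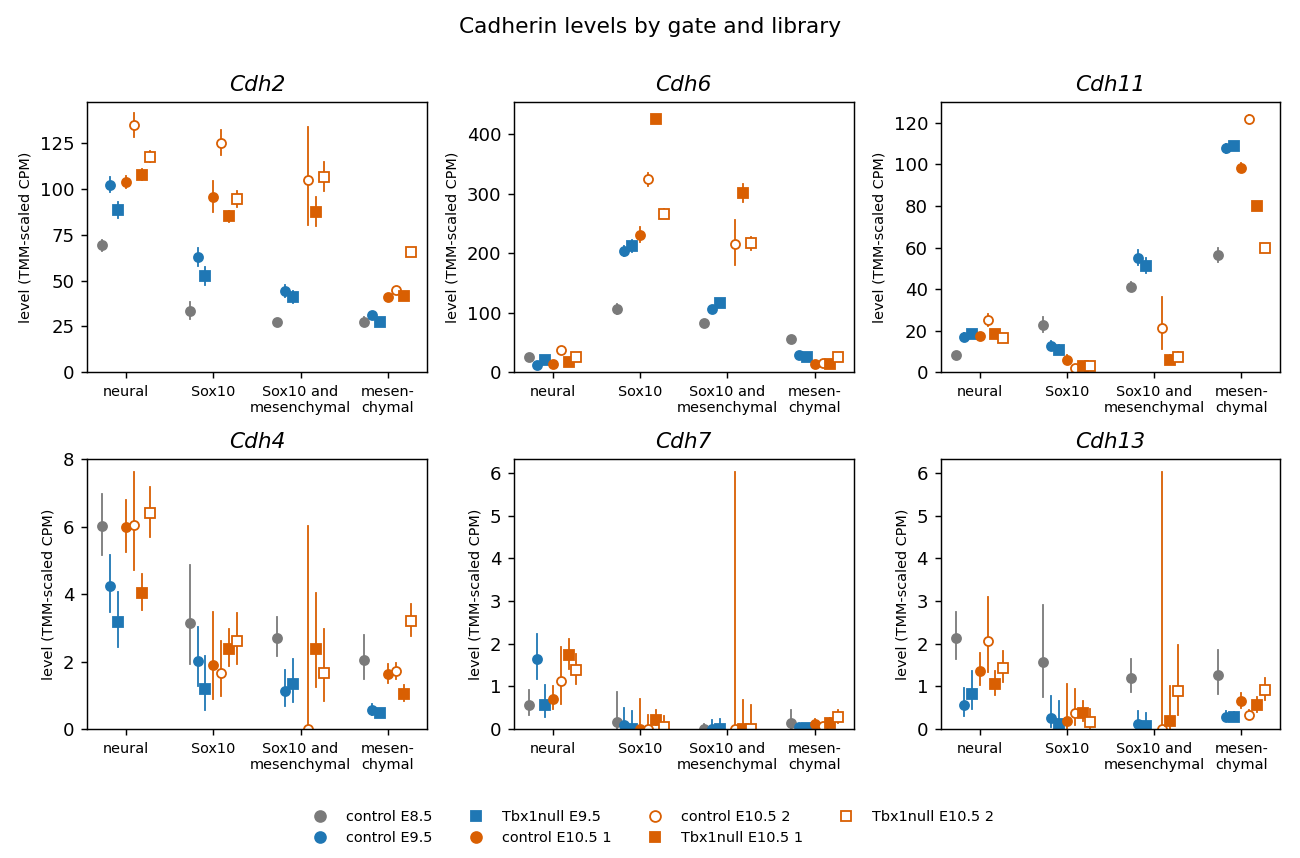
Level of 6 cadherins (y axis, CPM with TMM scaling, from 0) in the 4 gates (x axis). Each point is 1 library and each line its 95% Poisson interval, which covers counting error only; the double-positive gate of control E10.5 replicate 1 held 12 cells and is not drawn. Cdh2 steps down from neural to mesenchymal cells, Cdh6 peaks in Sox10 cells at 107 to 426 CPM, and Cdh11 peaks in mesenchymal cells at 56.3 to 122 CPM.

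From neural to Sox10 to mesenchymal cells, Cdh2 fell in both steps, Cdh6 rose and fell again, and Cdh11 rose only in the second step. Of the 7 genes, 6 passed the filter on low counts. From neural to Sox10 cells 1 of them rose and 5 fell, while 52.9% of the 14198 genes tested were called, 27.5% as higher and 25.4% as lower. From Sox10 to mesenchymal cells 1 rose and 3 fell, with 33.0% of all genes called, 19.2% as higher and 13.9% as lower. Over both steps 1 rose and 4 fell, with 52.1% called, 29.0% as higher and 23.1% as lower. These shares of called genes are the background against which the counts of cadherins are read. The cadherins were chosen with earlier results of these data known, so a count above its share is not independent evidence. In the fits within Sox10 cells alone, Cdh7 and Cdh13 did not pass the filter, and Cdh7 held 0 to 7 UMIs per library there. A gene can pass the filter between gates on the counts of 1 gate, so the counts of falls and the medians depend partly on it. The median log2 difference of the 6 genes from neural to Sox10 cells was -1.17 against 0.01 over all genes, from Sox10 to mesenchymal cells -0.16 against 0.03, and from neural to mesenchymal cells -1.25 against 0.04.

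Cdh2 on chromosome 18 (GRCm38, 16588877 to 16809246, minus strand) encodes N-cadherin, the main cadherin of the neural tube. Its level in neural cells was 69.2, 102, 88.2, 104, 135, 108 and 117 CPM. In Sox10 cells it was 33.5, 62.7, 52.3, 95.4, 125, 84.9 and 94.4 CPM, and in mesenchymal cells 27.6, 31.0, 27.6, 41.2, 45.0, 41.6 and 65.3 CPM. In each of the 7 libraries the order was neural above Sox10 above mesenchymal cells, although the ranges of neighbouring gates overlapped between libraries. The fitted log2 fold change from neural to Sox10 cells was -0.40 ± 0.12 (SE, edgeR adjusted p = 0.0112), and from Sox10 to mesenchymal cells -0.96 ± 0.12 (adjusted p = 4.57e-05, edgeR). The first step was not called in the 4 E10.5 libraries alone, where it was -0.13 (edgeR adjusted p = 0.329), nor in the control libraries alone (-0.43, adjusted p = 0.116) or the Tbx1null-labelled libraries alone (-0.41, adjusted p = 0.0585). The second step was called in each of these subsets. In that step 3 of the neural markers Sox1, Sox3, Pax6, Hes5 and Nes were called higher in mesenchymal cells and 1 lower (median log2 difference 1.56), and their part in the Cdh2 value was not tested. Over both steps Cdh2 was 2.57-fold lower in mesenchymal than in neural cells. Neurons within the neural gate held more Cdh2 than its progenitors at E9.5 and E10.5 (0.36 ± 0.07, edgeR adjusted p = 0.00147, below). Their part in the first step was not tested, and Sox10 cells were not tested against progenitors alone.

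After each cell was thinned to 5000 UMIs, Cdh2 was detected in 23.3% to 51.2% of neural cells, 10.8% to 48.4% of Sox10 cells and 10.1% to 30.2% of mesenchymal cells. Free RNA in the droplets was not estimated, and the part it has in the mesenchymal shares was not tested. The highest mesenchymal share, 30.2%, and the highest mesenchymal level belonged to Tbx1null-labelled E10.5 replicate 2, the library with neuron markers in this gate. Without cells holding at least 2 UMIs of Elavl3 and Stmn2 together the fall from Sox10 to mesenchymal cells was -1.02 (edgeR adjusted p = 1.11e-05).

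Cdh6 on chromosome 15 (13028701 to 13173675, minus strand) encodes a type II cadherin known from the dorsal neural tube and premigratory NCCs. Its level was 26.4, 12.2, 20.9, 13.7, 36.9, 17.5 and 26.2 CPM in neural cells. In Sox10 cells it was 107, 203, 212, 231, 324, 426 and 267 CPM. In mesenchymal cells it was 55.5, 29.7, 25.03, 13.4, 16.0, 14.2 and 26.2 CPM. Every Sox10 gate lay above every neural and every mesenchymal gate. The rise from neural to Sox10 cells was 3.68 ± 0.38 on the log2 scale, or 12.8-fold (edgeR adjusted p = 1.89e-06). The fall from Sox10 to mesenchymal cells was -3.40 ± 0.38, or 10.5-fold (edgeR adjusted p = 1.45e-05). Both steps were called under every alternative run. Neural and mesenchymal cells differed by 0.29 ± 0.35 (edgeR adjusted p = 0.521), and the sign of this value turned in the E10.5 libraries alone (-0.34) and with gates set on thinned cells (-0.49).

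At 5000 UMIs per cell Cdh6 was detected in 30.1% of Sox10 cells at E8.5. Both E9.5 libraries were higher, with 50.4% and 58.3%, and the E10.5 libraries ranged from 65.2% to 86.2%, while the level did not pass the test between these stages (below). In neural cells the share was 3.92% to 10.6%, and in mesenchymal cells 6.78% to 17.7%, the highest at E8.5. Double-positive cells held 82.5 CPM at E8.5, 106 and 116 CPM at E9.5 and 216 to 301 CPM in the 3 E10.5 libraries with at least 20 such cells.

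Cdh6 was also compared among neural cells with 0 Sox10 UMIs. Foxd3 is a factor of premigratory NCCs, and the study used it with Sox10 to identify early migratory NCCs. Neural cells with at least 1 Foxd3 UMI and 0 Sox10 UMIs numbered 7 to 67 per library. Their Cdh6 level, as CPM without TMM scaling, was 37.6, 103, 141, 154, 233, 72.4 and 78.8. Neural cells with neither Foxd3 nor Sox10 held 7.35 to 26.8 CPM, and the level was higher in the Foxd3 cells of all 7 libraries. These values rest on 9 to 100 Cdh6 UMIs per library and have no test. Foxd3 was itself higher in Sox10 than in neural cells, by 5.43 on the log2 scale (below). A cell with 0 Sox10 UMIs can still express Sox10, and the part of such cells was not tested. Cdh2 in the same Foxd3 cells was 42.3 to 152 CPM, against 54.7 to 148 CPM in the neural cells with neither, and the order of the groups differed between libraries.

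The promoter window of Cdh6 is shown because Cdh6 rose together with the gate on Sox10, whose protein family recognises the letters ACAAAG or ACAATG. The 250 bases before its transcription start (RefSeq, GRCm38.p6, chr15:13173676-13173925, minus strand) hold one match on the strand shown, in capitals, starting at position -52 relative to the start.
Cdh6: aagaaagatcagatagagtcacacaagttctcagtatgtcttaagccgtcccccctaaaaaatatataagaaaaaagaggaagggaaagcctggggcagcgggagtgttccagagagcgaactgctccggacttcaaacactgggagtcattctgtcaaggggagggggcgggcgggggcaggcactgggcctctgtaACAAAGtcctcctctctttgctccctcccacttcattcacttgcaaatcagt
Searched on both strands, ACAAAG was found in 16.5% and ACAATG in 10.7% of 32851 promoter windows of this length, so a match is common. The letters ACAAAG also stand on the other strand of one Cdh7 window, at position -48, and Cdh7 was lower in Sox10 than in neural cells. These matches are a description of the letters only.

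Cdh11 on chromosome 8 (102632095 to 102785642, minus strand) encodes a type II cadherin known from mesenchyme and from migrating cranial NCCs. Its level in neural cells was 8.41, 17.1, 18.2, 17.4, 24.9, 18.5 and 16.3 CPM. In Sox10 cells it was 22.8, 12.9, 10.7, 6.05, 2.29, 3.11 and 3.09 CPM, and in mesenchymal cells 56.3, 108, 109, 98.3, 122, 79.9 and 59.8 CPM. Mesenchymal cells of every library lay above all neural and Sox10 gates. Sox10 cells lay below neural cells in 6 of 7 libraries, and above them at E8.5.

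The rise from Sox10 to mesenchymal cells was 3.53 ± 0.43 on the log2 scale, or 11.6-fold (edgeR adjusted p = 2.96e-05), and that from neural to mesenchymal cells was 2.39 ± 0.38, or 5.24-fold (edgeR adjusted p = 0.000103). Both were called under every alternative run. Markers of other cells were also higher in mesenchymal than in Sox10 cells. They were 3 of 4 smooth muscle markers tested (median log2 difference 2.57), 2 of 3 cardiomyocyte genes (2.57) and 3 of 4 epithelial genes (2.01). Their part in the Cdh11 value was not tested. The fall from neural to Sox10 cells was -1.14 ± 0.42 (edgeR adjusted p = 0.0328). It was not called in the control libraries alone (-0.60, edgeR adjusted p = 0.518), with gates set on thinned cells (-1.10, adjusted p = 0.0554, edgeR), or when any one of 5 libraries was left out, among them control E10.5 replicate 2 (-0.90, adjusted p = 0.0872, edgeR). In the E10.5 libraries alone it was -2.40 (edgeR adjusted p = 2.46e-05).

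At 5000 UMIs per cell Cdh11 was detected in 17.6% to 43.6% of mesenchymal cells, 3.71% to 11.98% of neural cells and 0.794% to 9.06% of Sox10 cells. Double-positive cells held 41.2 CPM at E8.5 and 55.0 and 51.3 CPM at E9.5. At E10.5 they held 21.2, 5.83 and 7.37 CPM in the 3 libraries with at least 20 such cells. In each of these 6 libraries the double-positive level lay between those of the Sox10 and mesenchymal gates. It was above the neural level at E8.5 and E9.5 and below it at E10.5. The fall from neural to Sox10 cells thus describes Sox10 cells without the double-positive ones.

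**Figure D2:**
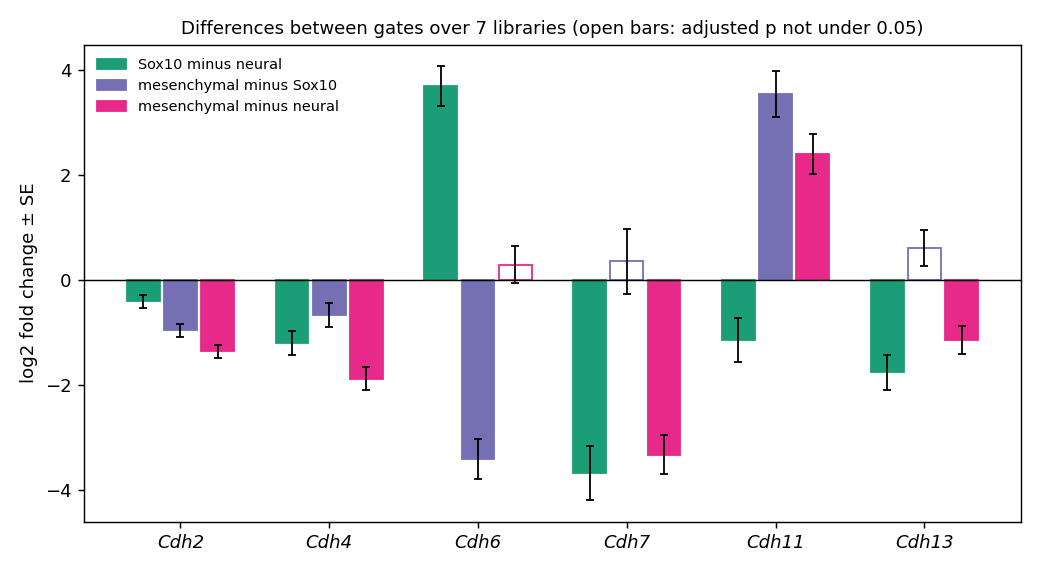
Fitted log2 fold change between gates (y axis) of 6 cadherins (x axis), with 1 bar for each of the 3 comparisons and lines for ± 1 SE. Open bars did not pass an adjusted p of 0.05 in edgeR over the 7 libraries. Cdh6 moved by 3.68 up and -3.40 down in the successive steps, and Cdh11 by -1.14 and 3.53.

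The remaining cadherins were low. Cdh4, R-cadherin of the developing brain and retina, on chromosome 2 (179442431 to 179899373, plus strand), held 6.03, 4.26, 3.18, 5.99, 6.04, 4.05 and 6.40 CPM in neural cells. Sox10 cells held 1.18 to 3.16 CPM and mesenchymal cells 0.473 to 3.21 CPM. Sox10 cells were below neural cells in all 7 libraries, with a log2 fold change of -1.20 ± 0.23 (edgeR adjusted p = 0.00043). Mesenchymal cells were below Sox10 cells in 5 of 7 libraries (-0.67 ± 0.23, edgeR adjusted p = 0.0349), a call that was lost when any one of 5 libraries was left out (-0.51, adjusted p = 0.102, without the control at E9.5) and in the E10.5 libraries alone (-0.37, adjusted p = 0.246, edgeR).

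Cdh7 on chromosome 1 (109982431 to 110140157, plus strand), a type II cadherin, was found mostly in neural cells, with 11 to 96 UMIs per library there against 0 to 7 in Sox10 and 2 to 15 in mesenchymal cells. Its level was 0.576, 1.64, 0.573, 0.709, 1.12, 1.73 and 1.37 CPM in neural cells and at most 0.274 CPM in either of the other gates. The fall from neural to Sox10 cells was -3.67 ± 0.51 (edgeR adjusted p = 3.01e-05) and that from neural to mesenchymal cells -3.32 ± 0.37 (edgeR adjusted p = 3.52e-06). Sox10 and mesenchymal cells differed by 0.35 ± 0.62 (edgeR adjusted p = 0.713), on these few UMIs, and the sign turned without the cells that hold neuron UMIs (-0.09).

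The letters CAGGTG, a form of the E-box that the Snail and Zeb repressors of cadherin genes recognise, are shown for Cdh7 because those factors are among the genes followed below. RefSeq gives 3 starts for Cdh7, and the 250 bases before 2 of them hold the letters, at positions -24 and -83 relative to their starts. The 30 bases around them lie at chr1:109982864-109982893 and chr1:109983628-109983657 (GRCm38.p6, plus strand), with the letters in capitals.
Cdh7 at -24: tgcggggctgagCAGGTGccggtccgctgc
Cdh7 at -83: tattccgttggtCAGGTGcatcttcagggt
On either strand CAGGTG was found in 17.2% of the 32851 promoter windows. Promoters of 2 of the 7 cadherins, Cdh6 and Cdh7, were in the reference table, and those of the others were not analysed here.

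Cdh13 on chromosome 8 (118283733 to 119324921, plus strand) held 2.14, 0.573, 0.833, 1.37, 2.07, 1.06 and 1.44 CPM in neural cells. The level in Sox10 cells was 0.118 to 1.58 CPM, from 1 to 12 UMIs per library, and in mesenchymal cells 0.285 to 1.26 CPM. It was lower than in neural cells in both gates of all 7 libraries. The log2 fold change from neural to Sox10 cells was -1.76 ± 0.34 (edgeR adjusted p = 0.000493) and to mesenchymal cells -1.15 ± 0.26 (edgeR adjusted p = 0.0021). That from Sox10 to mesenchymal cells was 0.61 ± 0.34 (edgeR adjusted p = 0.194).

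Cdh1 (chromosome 8, 106603351 to 106670246, plus strand), E-cadherin of epithelia, was not tested between gates because it fell below the filter, with 3 to 20 UMIs in all kept cells of a library. No Cdh1 UMI was found in Sox10 or double-positive cells at E8.5 or E9.5. At E10.5 these cells held 7 and 10 Cdh1 UMIs in the control and 3 and 19 in the Tbx1null-labelled libraries. In the Sox10 gate the difference between E9.5 and E10.5 was not called (edgeR adjusted p = 0.0736), with no Cdh1 UMI at E9.5. It was called without either Tbx1null-labelled E10.5 library (adjusted p = 0.00753 and 0.0248, edgeR), with a mesenchymal gate at 4 UMIs (adjusted p = 0.0386, edgeR) and without the filter (adjusted p = 0.00752, edgeR). Pmel, a melanosome gene, had the highest Pearson correlation with Cdh1 over gates (below). Of the Sox10 and double-positive cells, 13 and 43 in the control and 19 and 50 in the Tbx1null-labelled libraries held a Pmel UMI at E10.5, and these cells carried 7, 8, 2 and 17 of the Cdh1 UMIs. Their Cdh1 level was 18.5, 9.63, 3.30 and 10.0 CPM without TMM scaling, against 0, 0.213, 0.0302 and 0.0972 CPM in the Sox10 and double-positive cells without Pmel. At E8.5, 62 such cells held Pmel and 0 held Cdh1. This split was chosen after the values were seen and has no test.

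Over all kept cells, Cdh1 was also counted in cells with a UMI of Epcam, an epithelial adhesion gene. Epcam cells were 133 to 438 per library and held all 3 and all 13 Cdh1 UMIs at E9.5, and 12 of 20 at E8.5. At E10.5 they held 10 of 18 and 1 of 10 in the control and 9 of 12 and 0 of 20 in the Tbx1null-labelled libraries. Epcam was 1 of 7 genes in the epithelial list, of which 4 were tested between gates. From neural to Sox10 cells Epcam, Krt8 and Krt18 were called lower, and Esrp1 higher (5.27 ± 0.62, edgeR adjusted p = 5.94e-06). Neural cells held at most 2 Cdh1 UMIs in any library, so a fall of Cdh1 from neural to Sox10 cells could not be detected at this depth.

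Levels were next followed over bins of the UMIs of the genes behind the gates, in all kept cells thinned to 5000 UMIs. The median depth before thinning was 14855.5 to 22882 UMIs per library. A cell with 1 UMI left can thus hold more before thinning and belong to a gate. The bins therefore do not show the lowest levels of these genes. As Twist1, Prrx1 and Prrx2 UMIs went from 0 to 4-7 per cell, Cdh2 went from 44.8, 77.8, 73.3, 113, 140, 120 and 135 CPM to 18.5, 21.0, 23.6, 39.4, 50.7, 31.6 and 54.4 CPM. Cdh11 went from 13.6, 17.5, 17.4, 20.9, 37.5, 16.7 and 16.0 CPM to 55.4, 92.7, 100, 114, 129, 88.3 and 85.8 CPM over the same bins. Both moved in the same direction in all 7 libraries. Cells with 1 such UMI held 23.6 to 133 CPM of Cdh11 and 27.0 to 129 CPM of Cdh2. In 6 of 7 libraries the Cdh11 level at 1 UMI lay below that at 2-3 UMIs, and in control E10.5 replicate 2 it was 133 against 132 CPM. In this library Cdh11 did not climb beyond the first UMI, and Cdh2 went from 47.4 CPM at 2-3 UMIs to 50.7 CPM at 4-7 and 58.3 CPM at 8 or more.

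Cdh6 was higher in cells with 1 or more Sox10 UMIs left after thinning than in cells with 0. Cells with 0 Sox10 UMIs held 18.5 to 37.5 CPM, cells with 1 UMI 57.8, 108, 123, 275, 338, 438 and 219 CPM, and cells with 2-3 UMIs 77.3, 131, 138, 332, 352, 494 and 313 CPM. Cdh11 ran the other way from E9.5 on, with 33.7 to 110 CPM at 0 Sox10 UMIs and 2.53 to 19.4 CPM at 2-3 UMIs, while at E8.5 the values were 20.5 and 25.8 CPM. These bins mix neural and mesenchymal cells where Sox10 is 0.

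**Figure D3:**
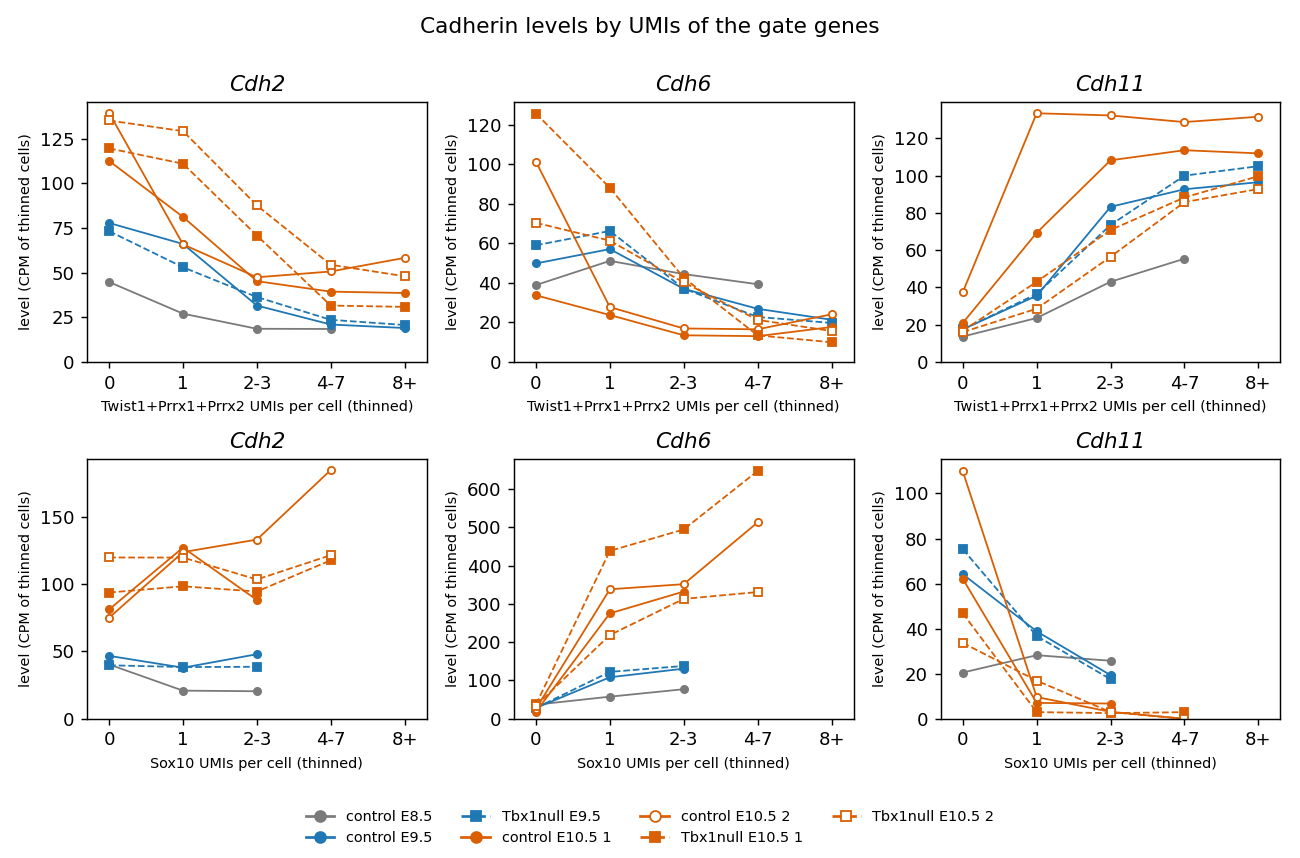
Levels of Cdh2, Cdh6 and Cdh11 (y axis, CPM of cells thinned to 5000 UMIs) against the UMIs per cell of Twist1, Prrx1 and Prrx2 together (upper row) and of Sox10 (lower row). Each line is 1 library and bins under 20 cells are not drawn. Between 0 and 4-7 UMIs on the upper axis Cdh2 declines and Cdh11 climbs in all 7 libraries. In control E10.5 replicate 2, however, Cdh2 turns up from 47.4 CPM at 2-3 UMIs. Cdh6 is higher at 1 than at 0 Sox10 UMIs left after thinning, a count that can be larger before thinning.

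Within mesenchymal cells, the ratio of thinned cells with both Cdh2 and Cdh11 to the number that their shares alone would give was 0.92 to 1.01 in 5 libraries and 0.80 in both libraries labelled Tbx1null at E10.5. The latter held 161 and 126 such cells against 200.1 and 158 from the shares. Cells with at least 2 UMIs of Hoxa3, Hoxb3 and Hoxd3 together held less Cdh11 and more Cdh2 than other mesenchymal cells (below). They were 50.8% and 65.2% of mesenchymal cells in the E10.5 libraries labelled Tbx1null, against 26.2% and 16.4% in the E10.5 controls. Replicate 2 of the former was also the library with neuron markers in this gate. The part of this make-up in the ratios was not tested, and no test was run on the ratios.

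Other genes of the adhesion system, from lists chosen by function, also differed between gates. Of 13 further cadherins 7 passed the filter. From neural to Sox10 cells 3 rose and 2 fell, with 52.9% of all genes called in this step and 33.0% in the next, and their median log2 difference was -0.30. The same shares are the background for the lists that follow. Cdh19, a glial and Schwann cell precursor cadherin, rose by 5.42 ± 0.92 (edgeR adjusted p = 0.000172) and Cdh3 (P-cadherin) by 4.72 ± 0.62 (edgeR adjusted p = 1.68e-05). Cdh22 fell by 4.69 (edgeR adjusted p = 1.25e-05) and Cdh20 by 2.47 (edgeR adjusted p = 0.000315). From Sox10 to mesenchymal cells none of the 7 rose and 2 fell, Cdh19 by 3.96 (edgeR adjusted p = 0.00381) and Cdh10 by 2.68 (edgeR adjusted p = 0.00111). Cdh3 differed by -0.72 ± 0.45 there (edgeR adjusted p = 0.249), and was 4.01 ± 0.60 higher in mesenchymal than in neural cells (edgeR adjusted p = 6.55e-05).

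The transcription factors of the epithelial to mesenchymal transition differed in the gate where they were highest. All 9 were tested, and from neural to Sox10 cells 5 rose and 2 fell. Foxd3 rose by 5.43 ± 0.74 (edgeR adjusted p = 2.5e-05), Ets1 by 5.16 ± 0.29 (edgeR adjusted p = 1.04e-08) and Snai1 by 3.22 ± 0.25 (edgeR adjusted p = 1.38e-07), while Zeb1 fell by 2.88 (edgeR adjusted p = 6.61e-08). From Sox10 to mesenchymal cells 3 rose and 3 fell. Snai2 rose by 4.62 ± 0.37 (edgeR adjusted p = 6.42e-07), after a difference of -0.14 ± 0.43 in the step before. Foxd3 fell by 6.30 (edgeR adjusted p = 4.09e-05) and Zeb2 by 2.60 (edgeR adjusted p = 5.38e-06). Over both steps Snai1 was 4.76 ± 0.25 and Snai2 4.48 ± 0.33 higher (edgeR adjusted p = 2.84e-09 and 9.1e-08). Falls over both steps included those of Pcdh8 (-3.25 ± 0.45), Cdh22 (-2.95 ± 0.40) and Cdh20 (-2.54 ± 0.33), with adjusted p of 2.8e-05, 2.41e-05 and 1.91e-05 in edgeR.

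Junction genes also changed, with 7 of 12 higher and 4 lower in Sox10 than in neural cells, against 52.9% of all genes called. Afdn, which encodes afadin of adherens junctions, fell by 3.60 (edgeR adjusted p = 9.49e-07) and the neural alpha-catenin gene Ctnna2 by 2.65 (edgeR adjusted p = 4.16e-06). The broadly used catenin genes differed by less, Ctnnb1 by 0.35 ± 0.05 and Ctnna1 by 0.57 ± 0.05 (edgeR adjusted p = 8.79e-05 and 7.76e-07). From Sox10 to mesenchymal cells 3 rose and 7 fell, against 33.0% of all genes called, and Afdn rose by 2.52 ± 0.34 (edgeR adjusted p = 6.44e-05).

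Of 9 protocadherins 3 rose and 4 fell from neural to Sox10 cells, among them Pcdh8, which fell by 2.87 (edgeR adjusted p = 0.000117). From Sox10 to mesenchymal cells 4 rose and 2 fell, and Pcdh19 rose by 3.50 ± 0.52 (edgeR adjusted p = 0.000166). Of 7 proteases of cadherins and matrix, 4 rose and none fell from neural to Sox10 cells. Of all genes 27.5% were called higher and 25.4% lower in this step. Adam12 rose by 4.62 ± 0.60 (edgeR adjusted p = 1.54e-05), whereas Adam10, which is known to cleave N-cadherin, differed by -0.04 ± 0.06 (edgeR adjusted p = 0.631). From Sox10 to mesenchymal cells none of the 7 rose and 3 fell, against 19.2% of all genes called higher and 13.9% lower.

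Between E9.5 and E10.5 Cdh11 and Cdh2 were called in the Sox10 gate. Cdh11 in Sox10 cells was 12.9 and 10.7 CPM at E9.5 and 6.05, 2.29, 3.11 and 3.09 CPM at E10.5, so the stages did not overlap. The log2 fold change was -1.76 ± 0.31 (edgeR with genotype as a covariate, adjusted p = 0.00477). Cdh2 in Sox10 cells was 62.7 and 52.3 CPM at E9.5 and 84.9 to 125 CPM at E10.5, again without overlap (0.79 ± 0.18, edgeR adjusted p = 0.0151). Cdh6 in Sox10 cells, at 203 and 212 CPM against 231 to 426 CPM, differed by 0.57 ± 0.23 and was not called (edgeR adjusted p = 0.1003). Neural and neuron markers moved with the Cdh11 and Cdh2 changes. Of the neuron markers named above, 4 of 5 tested were called higher at E10.5 in the Sox10 gate (median log2 difference 4.55), with sums of 117 and 87.7 CPM at E9.5 and 197 to 785 CPM at E10.5. Of the 4 tested among Sox1, Sox3, Pax6, Hes5 and Nes, 2 were higher (median 1.35), with sums of 106 and 104 CPM against 174 to 267 CPM. Their part in the cadherin changes was not tested. These 2 of the 5 cadherins tested in this gate were called, against 21.1% of all genes. With only 2 libraries at E9.5, both calls were lost when either was left out, at adjusted p of 0.0672 and 0.0807 for Cdh11 and 0.123 and 0.194 for Cdh2 in edgeR, with log2 fold changes of -1.69 and -1.81, and 0.83 and 0.75. E8.5 had 1 library and no test, and its Sox10 cells held 33.5 CPM of Cdh2 and 22.8 CPM of Cdh11.

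In mesenchymal cells 1 of 6 cadherins was called between the stages, against 24.1% of all genes. Cdh4 rose by 1.74 ± 0.48 (edgeR adjusted p = 0.0388), from 0.566 and 0.473 CPM to 1.06 to 3.21 CPM, and the call was lost without any one of 4 libraries (1.49 to 1.98, edgeR adjusted p = 0.0685 to 0.229). Neuron markers moved with it, with 2 of 5 called higher (median log2 difference 2.53) and sums of 23.8 and 21.8 CPM at E9.5 and 63.9 to 893 CPM at E10.5. Without cells holding neuron UMIs Cdh4 was 1.54 higher (edgeR adjusted p = 0.0277). Of the smooth muscle markers Cnn1, Rgs5, Myh11, Actg2 and Des, 4 of 5 were also called higher (median 2.92), with sums of 11.9 and 14.8 CPM against 32.7 to 55.7 CPM, and 2 of 5 endothelial genes were higher (median 1.28), with sums of 1.41 and 1.20 CPM against 2.92 to 7.88 CPM. The part of both was not tested. Cdh6 in mesenchymal cells was 29.7 and 25.03 CPM at E9.5 and 13.4 to 26.2 CPM at E10.5 (-0.79 ± 0.27, edgeR adjusted p = 0.0682). Leaving out Tbx1null-labelled E10.5 replicate 2 brought it past the threshold (-1.02, adjusted p = 0.0132, edgeR), as did leaving out cells with neuron UMIs (-0.83, adjusted p = 0.0431, edgeR) and 5 other alternatives. Some genes that were highest in Sox10 cells also fell in this gate, Cdh19 by 2.64 (edgeR adjusted p = 0.00654) and Foxd3 by 3.02 (edgeR adjusted p = 0.0102). Others rose, among them Adam19 by 1.32 (edgeR adjusted p = 0.0155) and Mmp14 by 1.13 (edgeR adjusted p = 0.00685). The part of such genes in the Cdh6 value was not tested. In neural cells edgeR called none of 6 cadherins, against 12.6% of all genes, and only Cdh13 had an unadjusted p under 0.05 (0.99 ± 0.42, edgeR adjusted p = 0.14). The tissue taken differed between the stages, and its part was not tested.

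At E10.5 the main edgeR fit called no cadherin between the libraries labelled Tbx1null and the controls in any gate. Few genes were called in all by edgeR. In neural cells edgeR called 0 genes (0% of 14692, 859 at an unadjusted p under 0.05, and 47 by DESeq2), in Sox10 cells 0.0395% of 12674 and in mesenchymal cells 0.0316% of 15802, where DESeq2 called 68 and 600. Cdh2 in neural cells was 104 and 135 CPM in the controls and 108 and 117 CPM in the libraries labelled Tbx1null (-0.09 ± 0.21, edgeR adjusted p = 0.947). Cdh6 in Sox10 cells was 231 and 324 CPM against 426 and 267 CPM (0.28 ± 0.27, edgeR adjusted p = 0.738). The 2 genotypes overlapped for both genes.

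Cdh11 in mesenchymal cells was 98.3 and 122 CPM in the controls and 79.9 and 59.8 CPM in the libraries labelled Tbx1null, without overlap (-0.76 ± 0.27, edgeR adjusted p = 0.303). At E9.5 the values were 108 and 109 CPM. The make-up of the gate moved with this difference. Cells with Hox3 UMIs, which held less Cdh11 (below), were 26.2% and 16.4% of mesenchymal cells in the controls and 50.8% and 65.2% in the libraries labelled Tbx1null. Among Hox3 cells alone Cdh11 was 62.0 and 85.6 CPM against 60.3 and 45.4 CPM, and the Poisson intervals of the first control and the first Tbx1null-labelled library overlapped. Among Hox2 cells, which were 35.9% and 34.1% of mesenchymal cells in the controls and 29.4% and 11.9% in the libraries labelled Tbx1null, Cdh11 was 123 and 145 CPM against 100.2 and 97.7 CPM, again without overlap. Among cells without Hox2 or Hox3 UMIs it was 96.6 and 111 CPM against 115 and 80.3 CPM. These values within a Hox class have no test. Neural and neuron markers were also higher in this gate of the libraries labelled Tbx1null, though none was called, with median log2 differences of 2.05 and 2.61. The neural markers summed to 137 and 62.4 CPM in the controls and 185 and 368 CPM in the libraries labelled Tbx1null, and the neuron markers to 106 and 63.9 CPM against 151 and 893 CPM. Without cells holding neuron UMIs the Cdh11 value was -0.68 (edgeR adjusted p = 0.290). The part of the neural markers in the difference was not tested. The difference of the genotype effect between mesenchymal and neural cells was -0.50 ± 0.16 for Cdh11 (edgeR adjusted p = 0.33), and no cadherin was called in this test, against 0.0126% of all genes. One of the 2 genes called was the protocadherin gene Pcdh19 (-2.42 ± 0.20, edgeR adjusted p = 0.0390), chosen here after its values were seen. That call was lost without either Tbx1null-labelled library (edgeR adjusted p = 0.184 and 0.722 for replicates 1 and 2), with DESeq2's size factors in edgeR (adjusted p = 0.099) and with gates set on thinned cells (adjusted p = 0.277, edgeR), with Pcdh19 values of -2.46 to -2.31 over all alternatives. Between genotypes it differed by -2.57 ± 0.25 in mesenchymal cells (edgeR adjusted p = 0.0668) and -0.15 ± 0.29 in neural cells (edgeR adjusted p = 0.933), and it was lower in Hox3 than in Hox2 cells (-1.80 ± 0.27, edgeR adjusted p = 0.00419).

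Mesenchymal cells differed in Cdh11 and Cdh2 by their Hox UMIs. Hox3 cells had at least 2 UMIs of Hoxa3, Hoxb3 and Hoxd3 together, genes of the third and more caudal arches. Hox2 cells had at least 2 UMIs of Hoxa2 and Hoxb2 and 0 of the Hox3 genes. Over the 6 libraries at E9.5 and E10.5 Cdh11 was 56.0, 57.7, 62.0, 85.6, 60.3 and 45.4 CPM in Hox3 cells. In Hox2 cells it was 102, 105, 123, 145, 100 and 97.7 CPM, above the Hox3 cells of every library. The log2 difference was -0.89 ± 0.05 (edgeR adjusted p = 4.11e-05). Against cells with no Hox2 or Hox3 UMI, whose levels were 122, 118, 96.6, 111, 115 and 80.3 CPM, it was -0.82 ± 0.10 (edgeR adjusted p = 0.00167). Both calls were kept under every alternative run, and without cells holding neuron UMIs the values were -0.83 and -0.76 (edgeR adjusted p = 2.86e-05 and 0.0034). Neural markers moved with these differences too (below).

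Cdh2 was higher in Hox3 cells, with 37.0, 39.6, 51.0, 54.9, 49.6 and 74.8 CPM against 36.3, 33.2, 34.3, 41.8, 28.7 and 40.1 CPM in Hox2 cells (0.49 ± 0.11, edgeR adjusted p = 0.0197). Against cells with no such UMI it was 0.35 ± 0.09 higher (edgeR adjusted p = 0.0385). The first call was lost with gates set on thinned cells (0.19, adjusted p = 0.423, edgeR), with a mesenchymal gate at 4 UMIs (0.33, adjusted p = 0.0731, edgeR) and without either of 2 libraries, and the second at 4 UMIs (0.08, adjusted p = 0.635, edgeR) and without any of 5 libraries. Cdh4 was 1.01 ± 0.22 higher in Hox3 than in Hox2 cells (edgeR adjusted p = 0.0197), but 0.60 at 4 UMIs (edgeR adjusted p = 0.21). Without cells holding neuron UMIs Cdh2 was 0.43 higher than in Hox2 cells (edgeR adjusted p = 0.0172), while the call of Cdh2 against cells without Hox UMIs (0.30, adjusted p = 0.0941, edgeR) and that of Cdh4 (0.94, adjusted p = 0.0546, edgeR) were lost. Neural markers moved with these differences. Sox1, Sox3, Pax6, Hes5 and Nes were all called higher in Hox3 than in Hox2 cells (median log2 difference 1.52) and than in cells without Hox UMIs (median 3.08), and summed to 101 to 446 CPM, 51.6 to 199.9 CPM and 24.7 to 138 CPM in the respective cells. Of the 5 neuron markers 4 were higher than in Hox2 cells (median 2.05), with sums of 28.4 to 1169.7 CPM against 28.4 to 210.0 CPM. Against cells without Hox UMIs, 3 of 5 smooth muscle markers were lower (median -2.06), with sums of 5.23 to 48.3 CPM in Hox3 cells against 11.8 to 159.6 CPM, as were 1 of 3 cardiomyocyte genes tested (median -3.09) and 1 of 2 endothelial genes tested (median -0.67). The part of these markers in the Cdh2, Cdh4 and Cdh11 differences was not tested. In all, 3 of 4 cadherins tested were called between Hox3 and Hox2 cells, against 11.6% of all genes, and 2 of 4 between Hox3 cells and those without Hox UMIs, against 9.10%.

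**Figure D4:**
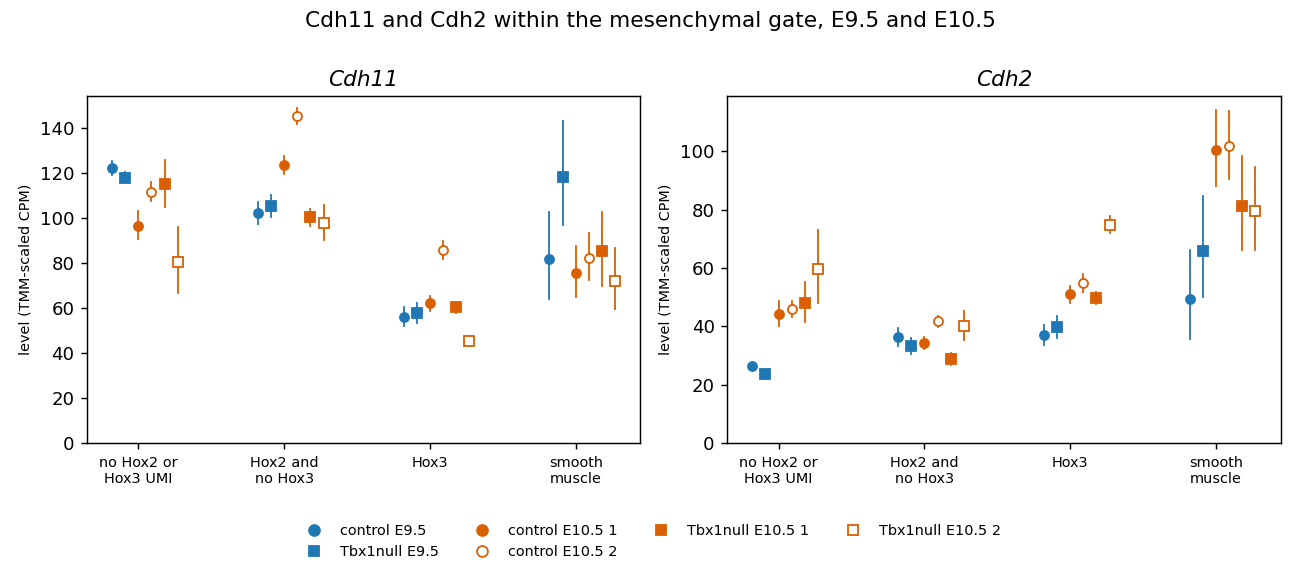
Level of Cdh11 (left) and Cdh2 (right) in mesenchymal cells at E9.5 and E10.5 (y axis, TMM-scaled CPM, from 0) by Hox and smooth muscle UMIs (x axis). Each point is 1 library and each line its 95% Poisson interval for counting error. Hox3 cells hold 45.4 to 85.6 CPM of Cdh11, less than the Hox2 cells of the same library. Cells with smooth muscle UMIs, which also held cardiomyocyte genes, hold 49.3 to 102 CPM of Cdh2.

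Mesenchymal cells with at least 3 UMIs each of Acta2 and Tagln, genes of smooth muscle, numbered 30 to 140 per library. Their Cdh2 level was 49.3, 65.8, 101, 102, 81.2 and 79.5 CPM, above the 30.8, 27.4, 39.6, 43.7, 41.0 and 65.0 CPM of the other mesenchymal cells in each library. The log2 difference was 0.97 ± 0.14 (edgeR adjusted p = 0.000205). Cdh6 was lower, with a log2 difference of -1.12 ± 0.20 (edgeR adjusted p = 0.00115), and Cdh13, known from vessels and smooth muscle, 1.42 ± 0.51 higher (edgeR adjusted p = 0.0444). Cdh11 differed by -0.17 ± 0.12 (edgeR adjusted p = 0.301). Of 5 cadherins tested 3 were called, against 39.0% of all genes.

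These cells also held cardiomyocyte genes. Tnnt2, Myh6, Myl7, Actn2 and Nkx2-5 summed to 1773 and 4106 CPM at E9.5, 1259 CPM in control E10.5 replicate 1 and 14.5 to 198 CPM in the other 3 libraries, and epithelial genes to 241 to 681 CPM. Of the latter Krt8 (4.81) and Krt18 (3.63) were called higher on the log2 scale, and Epcam differed by -0.36 ± 0.82 (edgeR adjusted p = 0.766). Of the endothelial genes Pecam1, Kdr, Cldn5, Cdh5 and Tek, 3 were tested and all 3 were higher (median log2 difference 4.80), with sums of 6.54 to 83.2 CPM against 0.768 to 6.63 CPM in the other mesenchymal cells. Cldn5 was at 0 in the smooth muscle gate of all 6 libraries. The part of the endothelial and epithelial genes was not tested. Without cells holding at least 2 UMIs of the cardiomyocyte genes, an alternative chosen after seeing the data, Cdh2 was 0.79 higher (edgeR adjusted p = 0.00186) and Cdh6 differed by -1.15 (adjusted p = 0.000192, edgeR), while Cdh13 was no longer called (1.13, edgeR adjusted p = 0.142). The Cdh13 call was also lost without any one of 5 libraries.

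Within the neural gate, neurons were separated from progenitors by Elavl3 and Stmn2, with at least 2 UMIs against 0. Cdh11 was 5.51, 11.5, 11.4, 11.5, 9.96 and 12.9 CPM in neurons and 18.4, 19.0, 23.1, 32.9, 25.4 and 19.7 CPM in progenitors of the 6 libraries at E9.5 and E10.5. The groups did not overlap, and the log2 difference was -1.07 ± 0.12 (edgeR adjusted p = 2.63e-05). Cdh6 was lower in neurons, with a log2 difference of -1.03 ± 0.16 (edgeR adjusted p = 0.000313), at 5.51 to 30.3 CPM against 13.5 to 46.0 CPM. Foxd3 was lower in neurons too (-1.08 ± 0.38, edgeR adjusted p = 0.034). The part of Foxd3 cells in the Cdh6 value was not tested. Cdh2 was higher, with 110 to 182 CPM against 84.6 to 108 CPM (0.36 ± 0.07, edgeR adjusted p = 0.00147). Of 6 cadherins 3 were called, against 47.4% of all genes.

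The genes whose level was most like that of each cadherin over 27 library and gate sums were looked up among 7540 genes with a mean of at least 10 CPM. For Cdh2 these were Cadm4, Fgd4 and Zfhx2 (Pearson r of log2 CPM, 0.95, 0.95 and 0.93). For Cdh6 they were Gm12688, Erbb3 and Tnik (0.98, 0.97 and 0.97), where Erbb3 is the neuregulin receptor of Schwann cell precursors. For Cdh11 they were Sh3bp5, Cited1 and Prex2 (0.92, 0.91 and 0.91). Cdh7 was closest to Sox1, Btbd17 and Msi1 (0.90 each), of which Sox1 and Msi1 mark neural progenitors. Cdh4 was closest to Zmat3, 2510009E07Rik and Wscd1 (0.84, 0.81 and 0.81), Cdh13 to Hes3, Tmem47 and Pdcl (0.86, 0.85 and 0.83) and Cdh1 to Pmel, Egfl8 and Tacc1 (0.79, 0.78 and 0.76). For Cdh1, which has few UMIs, Spearman's rho with the same genes was lower, at 0.57, 0.39 and 0.28. The sums share libraries and gates, so these values describe likeness only.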

How the data were processed

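Single-cell 3' RNA-seq of 7 libraries of sorted cells was analysed. The authors aligned reads to mm10 with Cell Ranger (version 6.0.1 per the labels) and deposited raw UMI counts per gene and cell barcode, without normalization or any further filter that is stated. Differences in kit and dissected tissue between libraries can change these counts.

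Barcodes were kept if they held 1000 genes or more and if mitochondrial UMIs made up no more than 10%, after removing the highest Scrublet scores (scanpy 1.11.5, 0.8% of barcodes per 1000 barcodes). Gates were set on raw UMIs, and UMIs were summed per library and gate where at least 20 cells were present. Sums were tested with edgeR 4.0.16 (TMM, filterByExpr, glmQLFit, glmQLFTest). A gene was called at an adjusted p (Benjamini-Hochberg) under 0.05. Gates were compared with the library as a block, genotypes at E10.5 in 2 against 2 libraries per gate, and stages over 6 libraries with genotype as a covariate. The SE is the log2 fold change divided by the square root of F. Intervals are 95% Clopper-Pearson or Poisson and cover counting error only. Cells were thinned to 5000 UMIs (3000 in an alternative) for shares, leaving out 22 to 427 shallower cells per library. DESeq2 1.42.0, other scalings, filters, gates and subsets of libraries were alternatives. The fits were tested on simulated data with 200 changed genes.

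The cadherins, the gates and the gene lists were chosen with earlier results of these data known. Named beside the cadherins are, of the further cadherins, protocadherins, junction genes, transcription factors and proteases, the 3 called genes with the largest rise and the 3 with the largest fall per comparison of gates, and the 3 genes most like each cadherin. Pmel, Cdh3, Zeb2, Ctnna2, Ctnnb1, Ctnna1, Adam10 and Adam12 were added after their values were seen. So were Snai1, Snai2, Cdh20 and Pcdh8 for the step from neural to Sox10 cells, Pcdh19 between genotypes, and Cdh19, Foxd3, Adam19 and Mmp14 between stages. Esrp1, and Foxd3 between neurons and progenitors, were added in the same way. Positions are from GENCODE vM21 (GRCm38), and the promoter windows from RefSeq. The marker list for Sox10 cells is not reported here.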

Additional observations from a re-analysis of the deposited data

Results flagged for a closer look

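Cdh11 in mesenchymal cells is given here because its difference between the libraries labelled Tbx1null and the controls had opposite signs at the 2 stages. From the levels, the log2 ratio of Tbx1null-labelled to control was 0.0176 at E9.5, with 1 library per genotype and kit version, so that genotype and kit cannot be told apart, and averaged -0.66 over the 4 pairs at E10.5, each of which was negative. The E9.5 value lies within counting error, since the Poisson intervals of 106 to 110 and 107 to 111 CPM overlap. The difference between the stages was not tested.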

How the results depend on the processing

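Of 342 alternative values of the cadherin differences between gates, 312 kept their direction and side of the threshold, 21 lost the call and 9 changed sign, none of the latter called. Calls of Cdh2 from neural to Sox10 cells were lost in control (-0.43), Tbx1null-labelled (-0.41) and E10.5 libraries alone (-0.13), of Cdh4 in Tbx1null-labelled libraries alone (-1.09), and of Cdh11 with thinned gates (-1.10) and control libraries alone (-0.60). Leaving out 1 library gave -1.67 to -0.90 for this Cdh11 value. Cdh4 from Sox10 to mesenchymal cells lost its call with a cell filter of 200 genes and 5% mitochondrial UMIs (-0.63), in control (-0.65), Tbx1null-labelled (-0.71) and E10.5 libraries alone (-0.37), and ran from -0.87 to -0.51 without 1 library. Cdh13 from neural to mesenchymal cells lost it in Tbx1null-labelled libraries alone (-0.99). The sign turned for Cdh7 from Sox10 to mesenchymal cells with doublets kept (-0.10), a Sox10 gate at 1 UMI (-0.76), a mesenchymal gate at 4 UMIs (-0.79), thinned gates (-0.31), without neuron UMIs (-0.088) and over 1 library left out (-0.095 to 1.09). It turned for Cdh13 in the same step at 4 UMIs (-0.064), and for Cdh6 from neural to mesenchymal cells with thinned gates (-0.49) and E10.5 libraries alone (-0.34). The causes were not tested.

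Counts of called genes fell with fewer libraries, to 3953 for neural to Sox10 cells (controls), 809 and 2949 for Sox10 to mesenchymal cells (controls, Tbx1null-labelled) and 4207 and 4080 for neural to mesenchymal cells. The genotype counts at E10.5 in neural, Sox10 and mesenchymal cells were 0, 5 and 5 with edgeR, 47, 68 and 600 with DESeq2, and 140, 327 and 1258 without a filter on low counts. In Sox10 cells they were 3 with a gate at 1 UMI and 48 with thinned gates, and in mesenchymal cells 16 with a gate at 4 UMIs, 15 with thinned gates and 17 without neuron UMIs. Leaving out 1 library, where a lone library is assumed to vary like the others, gave 32 to 52, 4 to 681 and 5 to 186. The interaction count of 2 became 193 with DESeq2, 1 with its size factors, 739 without the filter, 4 without neuron UMIs and 0 to 768 without 1 library. Stage counts were 3207 in neural cells without the filter, and without 1 library 0 to 2879 in neural, 265 to 3816 in Sox10 and 0 to 5072 in mesenchymal cells, with 0 in neural and in mesenchymal cells without the control at E9.5. Hox3 against Hox2 cells gave 381 with thinned gates and 628 to 1905 without 1 library, and Hox3 cells against those without Hox UMIs 736 at 4 UMIs and 658 to 1033.

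With the replicate number as a block, 476, 171 and 114 genes were called between genotypes in neural, Sox10 and mesenchymal cells. No cadherin was called under the block. Deviations of same-numbered libraries correlated across genes at 0.343, 0.141 and 0.0157, and with 2 pairs the numbers do not establish a pairing.

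Of 813 alternative values of the other cadherin differences, 32 lost a call, 27 gained one and 42 changed sign, none called with the opposite sign. Between genotypes in neural cells the changes of sign were Cdh2 (-0.26 to 0.046 without 1 library), Cdh4 (-0.57 to 0.059) and Cdh6 (-0.77 to 0.60, and 0.010 with thinned gates). In Sox10 cells they were Cdh6 (-0.090 to 0.58) and Cdh11 (-1.01 to 0.37, 0.18 at 1 UMI, 0.074 thinned). In mesenchymal cells they were Cdh2 (-0.089 to 0.46, -0.10 at 4 UMIs and -0.10 thinned), Cdh4 (-0.70 to 0.80, -0.33 at 4 UMIs, -0.62 thinned, -0.15 without neuron UMIs), Cdh6 (-0.090 to 0.69) and Cdh13 (-0.16 at 4 UMIs, -0.45 thinned). Between stages they were Cdh6 (-0.0094 to 0.99), Cdh7 (-0.93 to 1.37) and Cdh11 (-0.13 to 0.26) in neural and Cdh4 (-0.20 to 1.04) in Sox10 cells. Cdh6 between Hox3 cells and those without Hox UMIs was 0.0039 with DESeq2, 0.051 with the 200-gene filter, 0.014 thinned and -0.15 to 0.11 without 1 library, and Cdh13 between neurons and progenitors was -0.0059 thinned. In the interaction they were Cdh2 (-0.025 at 4 UMIs), Cdh4 (-0.22 at 4 UMIs, -0.65 thinned, -0.10 to 0.83), Cdh6 (-0.18 thinned, -0.17 to 0.90), Cdh7 (-0.85 at 4 UMIs, -0.25 without neuron UMIs, -0.44 to 1.01) and Cdh13 (-0.11 thinned).

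Median shares of cells with a UMI moved with depth, for Cdh2 in neural cells to 73.0% without thinning and 29.0% at 3000 UMIs, for Cdh6 in Sox10 cells to 94.4% without thinning and for Cdh11 in mesenchymal cells to 72.3% and 22.4%. The few UMIs of Cdh1, Cdh7 and Cdh13 limit what can be said of them.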

Other observations

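Cells in none of the gates numbered 415 to 1127 per library and were not used in a comparison. At E10.5 they held 4535 to 7577 CPM of the neuron markers Dcx, Tubb3, Nefl, Nefm and Isl1, against 696 to 1850 CPM in neural cells. Their Cdh13 level was 6.55, 3.68, 3.35 and 3.52 CPM at E10.5, above the 1.06 to 2.07 CPM of neural cells. Their Cdh4 level was 11.0, 6.83, 5.31 and 10.3 CPM, against 4.05 to 6.40 CPM in neural cells. Cdh2 in these cells was 123 to 145 CPM and Cdh11 10.1 to 35.8 CPM. No test was run on them.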
